A study of Mus musculus with 19 samples.

Results

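The AMPA-type glutamate receptor genes and their auxiliary subunits were followed here as 10 genes, picked by symbol and found by Ensembl ID among the 39017 genes of the tables. They are the pore subunits Gria1, Gria2, Gria3 and Gria4, the transmembrane AMPA receptor regulatory proteins (TARPs) Cacng2, Cacng3, Cacng4, Cacng5 and Cacng8, and the cornichon Cnih2. They were read in ribosome-bound mRNA of spiny projection neurons (SPNs), the output neurons of the striatum, by translating ribosome affinity purification (TRAP), in which tagged ribosomes are pulled down with the mRNA they carry. The 16 libraries came from striatum of female mice and formed 4 groups of 4: old D1 neurons (Drd1::EGFP-L10a, 2 years), young D1 neurons (Drd1::EGFP-L10a, 42 days), old D2 neurons (Drd2::EGFP-L10a, 2 years) and young D2 neurons (Drd2::EGFP-L10a, 42 days). All mice carried a tagged ribosomal protein transgene on a background written C56BL/6J in the labels, and no group lacked one. The driver is the Drd1 or Drd2 gene, so each pull-down covers any cell that uses that driver, and D1 and D2 values come from different mouse lines. A further 3 samples, ribosome profiling of NIH-3T3 fibroblasts, were not analysed here.

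AMPA receptors are tetramers of Gria subunits that open when glutamate binds and carry most fast excitatory transmission, which SPNs receive from cortex and thalamus. The Gria2 subunit, whose mRNA is edited by the deaminase Adarb1, keeps calcium from passing through the channel. TARPs and cornichons bind the pore and set its traffic to the synapse and its gating, and each pore subunit is spliced as flip or flop, alternative exons next to the last membrane segment that alter desensitization.

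The libraries held 27484038 to 70903004 assigned fragments. Old D1 libraries stood apart: a count was seen for 10369 to 13705 genes in old D1, against 12783 to 15000 in the other 12 libraries, and the mean fragment length was 151 to 164 bases in old D1, against 170.2 to 195 in the others. In the labels, barcodes of old D1 and of young D2 each end in a way that no other group shares, so the index set and the group cannot be told apart. The labelled cell types held: the 6 D1 markers summed to 4597 to 7381 TPM in old D1 and 2459 to 3229 in young D1, against 411 to 656 in old D2 and 133 to 154 in young D2, where TPM is a transcript's level per length, scaled to the same total in each library. The 5 D2 markers summed to 112 to 551 TPM in old D1 and 108 to 223 in young D1, against 5455 to 11480.0 in old D2 and 7615 to 8849 in young D2. In a pull-down of many cells, fewer cells of a type and less RNA per cell cannot be told apart.

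The flip and flop exons of Gria2 and Gria1 are shown because the isoform values given further on rest on telling them apart. In GENCODE M21 each of Gria1 to Gria4 has 2 neighbouring coding exons of 115 bases that most isoforms with either use as alternatives, flop first along the gene and flip second. A Gria3 isoform annotated for nonsense-mediated decay holds both and was left out of the flip shares. Bases are from the RefSeq copy of GRCm38, 5′ to 3′ on the gene's strand, and capitals mark the bases that differ between flip and flop of that gene. Gria2 (ENSMUSG00000033981) lies at chr3:80681450-80802835 on the minus strand, with its flip exon at chr3:80690404-80690518 and its flop exon at chr3:80691320-80691434. Gria1 (ENSMUSG00000020524) lies at chr11:57011387-57330244 on the plus strand, with its flip exon at chr11:57310608-57310722 and its flop exon at chr11:57309769-57309883.
Gria2 flip: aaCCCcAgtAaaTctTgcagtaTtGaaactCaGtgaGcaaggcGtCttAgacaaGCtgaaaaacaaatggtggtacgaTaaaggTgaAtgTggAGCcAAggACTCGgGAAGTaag
Gria2 flop: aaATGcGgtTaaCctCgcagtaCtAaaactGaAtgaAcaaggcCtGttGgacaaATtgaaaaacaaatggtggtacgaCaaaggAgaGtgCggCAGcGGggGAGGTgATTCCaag
Gria1 flip: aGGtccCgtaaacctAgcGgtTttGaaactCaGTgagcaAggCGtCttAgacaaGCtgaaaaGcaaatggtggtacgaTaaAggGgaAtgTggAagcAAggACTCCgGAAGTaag
Gria1 flop: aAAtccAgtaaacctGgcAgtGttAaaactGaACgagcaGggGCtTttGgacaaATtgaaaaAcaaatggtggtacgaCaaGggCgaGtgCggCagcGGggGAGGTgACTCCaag
The forms differed at 36 of 115 bases in Gria2, 36 in Gria1, 32 in Gria3 and 31 in Gria4. Between genes the exons were closer: Gria1 and Gria2 differed at 13 bases in flip and 14 in flop, and Gria2 and Gria3 at 9 in flip and 7 in flop.

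Over the 16 libraries Gria2 had the highest mean level of the 10 genes, 263 TPM with a range of 152 to 483. Cacng3 averaged 182 TPM (37.0 to 470.5), Cnih2 115.1 (20.4 to 194), Gria3 104.8 (64.0 to 222) and Gria1 82.6 (33.7 to 164). Cacng4 averaged 58.8 TPM (19.9 to 102), Cacng2 26.0 (0.70 to 52.8) and Gria4 18.9 (6.55 to 46.6). Cacng5 averaged 7.08 TPM (0.41 to 34.8) and Cacng8 6.58 (0 to 15.2). Each neighbouring pair in this order overlapped in range across libraries, so ranges separated only distant ranks: every library's Gria2 was above every library's Cacng4. Compared within the same library, Gria2 was above Cnih2, Gria3, Gria1 and Gria4 in all 16. That did not hold for Cacng3. By group mean, Cacng3 was above Gria2 in young D1 (258.4 against 189.1 TPM) and in young D2 (290.9 against 200.6 TPM). In young D1 the medians ran the other way, 190.7 TPM for Cacng3 and 196.3 for Gria2. The mean of Cacng3 was under that of Gria2 in old D1 (49.92 against 370.1 TPM) and old D2 (127.6 against 293.9 TPM). Expected counts, the estimated fragments behind a value, were 20565 to 77158 for Gria2, 947 to 12218 for Cacng3 and 363 to 5281 for Cnih2, but 40 to 2209 for Cacng5 and 0 to 646 for Cacng8. Values of Cacng5 and Cacng8 are therefore less firm.

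**Figure D1:**
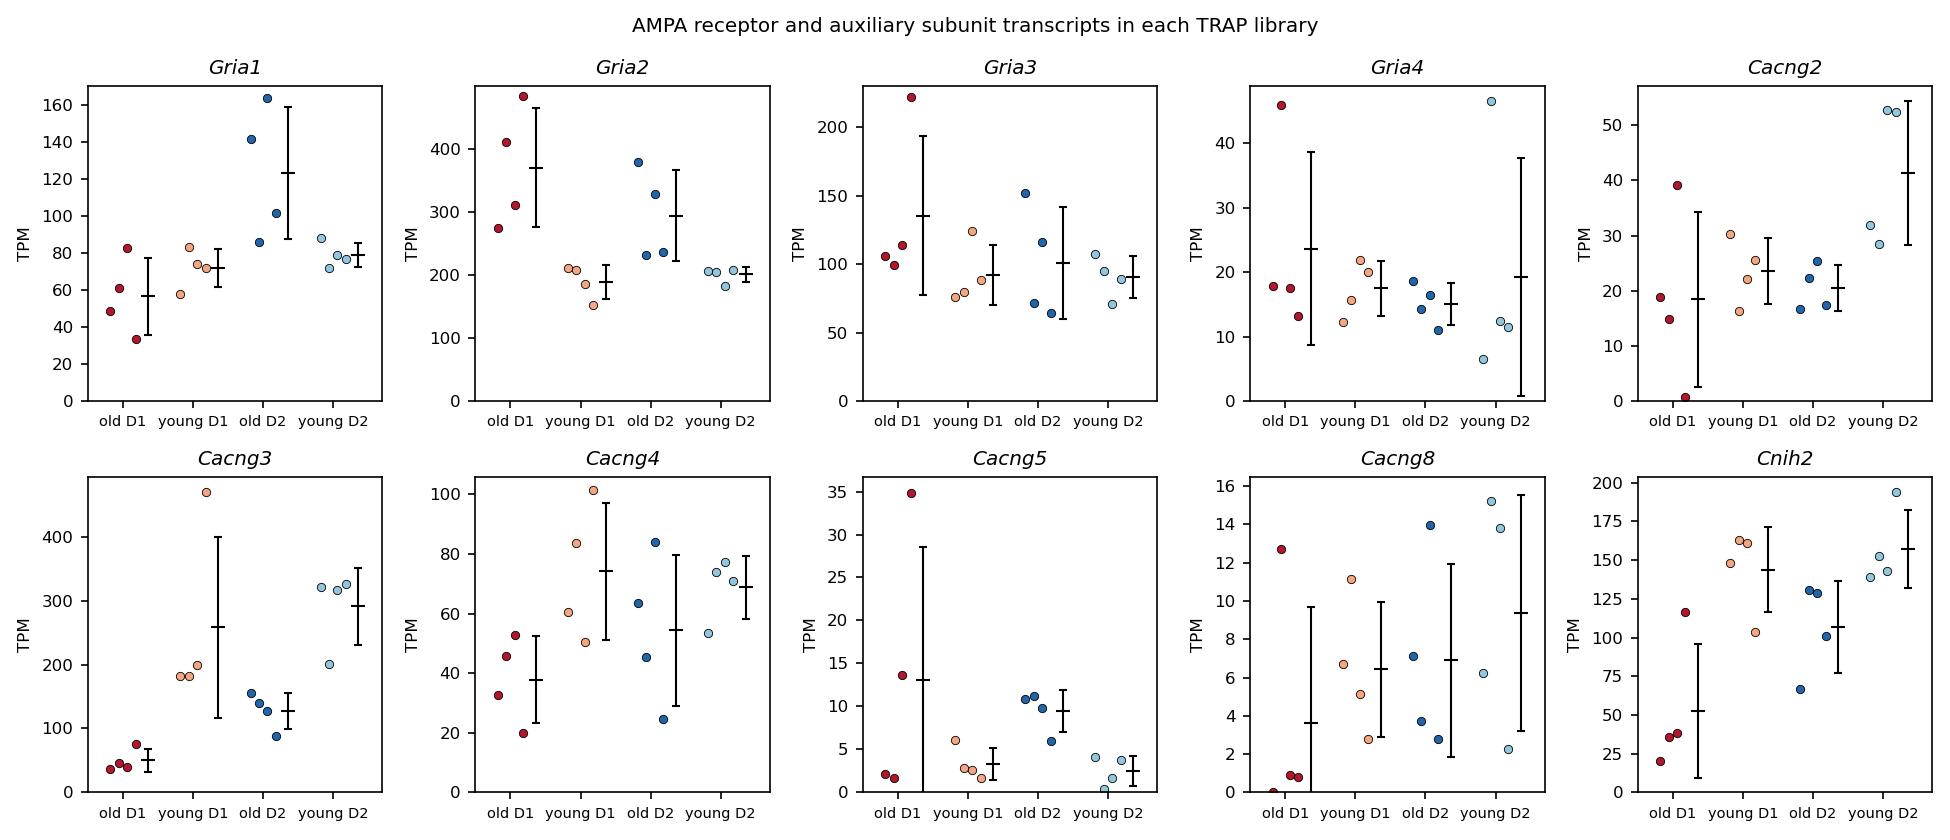
TPM (vertical axes, from 0) of the 10 genes in each library, by group, with each point a library and the bar the mean ± SD of 4 (bars that would go under 0 are cut there). Gria2 in the 4 old D1 libraries lies between 275 and 483 TPM, above all young D1 libraries (152 to 212), and Cacng3 lies between 37.0 and 76.3 TPM in old D1, under all young D1 libraries (182 to 470.5).

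The first comparison was age within D1 neurons. Gria2 rose, and the TARP Cacng3 and the cornichon Cnih2 fell, in old D1 neurons. So 3 of the 10 genes passed edgeR's quasi-likelihood test, with a Benjamini-Hochberg p adjusted over 13926 genes and a threshold of 0.05, where 10.8% of all genes tested were called. All 10 genes passed the filter on low counts. The median log2 fold change of the 10 was -0.49, beside -0.06 over all genes. The TPM values of 2 of the 10, Gria2 and Cacng3, did not overlap between old and young D1, where 13.8% of genes did not.

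Gria2, the subunit that blocks calcium, had 275, 411, 312 and 483 TPM in the old D1 libraries, against 212, 208, 185 and 152 TPM in the young D1 libraries. All 4 old libraries were above all 4 young ones. The mean was 370.1 ± 94.8 TPM in old D1 and 189 ± 27.2 in young D1 (SD, n = 4 each), a log2 fold change of 0.92 (SE 0.21, edgeR adjusted p = 0.00898). Gria2 missed the threshold by limma-voom with library weights (0.66, adjusted p = 0.0538) and with only the D1 groups in the fit (0.89, edgeR adjusted p = 0.0707). Gria1, the subunit added to synapses in plasticity, had 48.8, 61.0, 82.9 and 33.7 TPM in old D1, against 58.0, 83.1, 74.1 and 71.7 TPM in young D1. These ranges overlapped, and the log2 fold change was -0.47 (SE 0.24, edgeR adjusted p = 0.23). Gria3 had 106, 99.7, 114 and 222 TPM in old D1, against 76.0, 79.5, 124 and 88.3 TPM in young D1. Its log2 fold change of 0.53 (SE 0.32, edgeR adjusted p = 0.308) was 0.07 without the fourth old D1 library. Gria4, low in these neurons, ranged over 13.2 to 46.0 TPM in old D1 and 12.3 to 21.8 in young D1, with a log2 fold change of 0.35 (SE 0.46).

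Cacng3 (ENSMUSG00000066189, chr7:122670492-122769393, plus strand), the γ-3 TARP, had 37.0, 45.9, 40.4 and 76.3 TPM in the old D1 libraries, against 182, 182, 199 and 470.5 TPM in the young D1 libraries. Every old library was under every young library. Its log2 fold change was -2.10 (SE 0.30, edgeR adjusted p = 3.39e-04), and -1.86 (edgeR adjusted p = 0.00163) without the young D1 library at 470.5 TPM. Cacng4, the γ-4 TARP, had 32.8, 45.8, 52.9 and 19.9 TPM in old D1, against 60.7, 83.7, 50.6 and 102 TPM in young D1. The groups overlapped by a single pair of libraries, and its log2 fold change of -1.11 (SE 0.37) missed the threshold in edgeR (adjusted p = 0.0603), while DESeq2 called it (adjusted p = 0.0204), as did edgeR without the third young D1, the third old D1 or the fourth old D2 library (adjusted p 0.0337 to 0.0465).

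Cacng2, stargazin, the first TARP described, had 18.9, 14.8, 39.2 and 0.70 TPM in old D1, against 30.4, 16.3, 22.0 and 25.6 TPM in young D1, and was not called (log2 -0.52, SE 0.59). The fourth old D1 library, at 0.70 TPM, was far under the rest. Cacng5, a TARP of the second class, had 2.19, 1.62, 13.6 and 34.8 TPM in old D1, against 6.06, 2.87, 2.60 and 1.69 TPM in young D1. Its log2 fold change of 2.03 (SE 0.91, edgeR adjusted p = 0.158) came down to 0.67 without the fourth old D1 library. Cacng8, the γ-8 TARP best known from hippocampus, had 0, 12.7, 0.90 and 0.83 TPM in old D1, against 6.71, 11.1, 5.12 and 2.78 TPM in young D1, and was not called (log2 -0.94, SE 1.30). Its log2 fold change was -3.16 (edgeR adjusted p = 0.161) without the second old D1 library, at 12.7 TPM, and 1.71 with the GC and length trend described next removed.

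Cnih2 (ENSMUSG00000024873, chr19:5092868-5098521, minus strand), which takes AMPA receptors out of the endoplasmic reticulum and slows their closing, had 20.4, 35.99, 38.2 and 116 TPM in old D1, against 148, 163, 161 and 104 TPM in young D1. In 3 old libraries it was under all young libraries, and the fourth lay within the young range. The log2 fold change was -1.42 (SE 0.44, edgeR adjusted p = 0.0458), and -2.31 (edgeR adjusted p = 0.000289) without the fourth old D1 library. Leaving out any other D1 library took the adjusted p to between 0.0664 and 0.107. Leaving out any of 7 of the 8 D2 libraries, which share the estimate of spread, took it to between 0.0555 and 0.0606. Cnih2 also missed the threshold with only the D1 groups in the fit (-1.44, edgeR adjusted p = 0.212). With DESeq2 size factors in edgeR it missed it too (-1.39, edgeR adjusted p = 0.0561).

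Beside these changes, fold changes with age in D1 ran with GC content. Across 13548 genes the old to young D1 log2 fold change had a Pearson r of -0.25 with the GC content of the main isoform, and across the 10 genes r was -0.61, as a description over genes that share the same libraries. Among the 10, Gria2 had the lowest GC content, 36.8%, while Cacng3 had 54.6%, Cnih2 62.3% and Cacng8 67.2%. When a smooth trend with GC content and length was taken out of each library, the median of all genes moved to 0.49 and no member was called. Gria2 then had a log2 fold change of 0.52 (edgeR adjusted p = 0.264), 0.03 above that median. Cacng3 had -1.05 (edgeR adjusted p = 0.0714), which relative to the median is -1.54. Cnih2 had 0.96 (edgeR adjusted p = 0.282), which relative to the median is 0.47. With the GC content of the coding part alone, chosen after seeing the data, Cacng3 was called lower (-1.63, edgeR adjusted p = 0.00923), Cacng5 was called higher (3.38, edgeR adjusted p = 0.0405), and Gria2 at 0.65 (edgeR adjusted p = 0.148) and Cnih2 at 0.04 (edgeR adjusted p = 0.973) were not. The median of all genes was then 0.48, and relative to it Cnih2 was at -0.43, on the same side as without correction, where it was at -1.36. GC content is a fixed property of each gene, so its part in the change of a single gene was not tested.

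**Figure D2:**
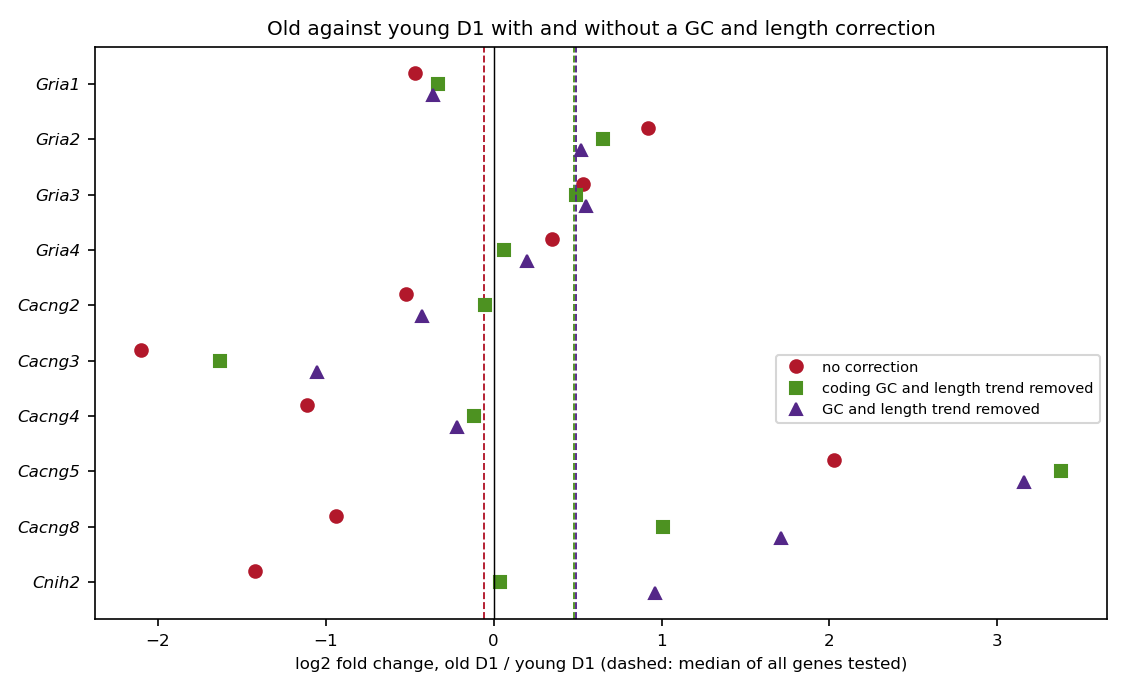
Log2 fold change of old D1 over young D1 (horizontal axis) of the 10 genes with no correction (circles), with a trend with coding GC content and length removed (squares) and with a trend with whole-isoform GC content and length removed (triangles). Dashed lines are the medians of all genes tested, -0.06, 0.48 and 0.49. Cacng3 stays left of each median, Gria2 comes to lie near it, and Cnih2 lies left of the median with no correction and with coding GC, and right of it with whole-isoform GC.

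Markers of other cells also differed among these libraries. The 6 glutamatergic neuron markers summed to 0.09 to 139 TPM in old D1, against 1.47 to 18.6 in young D1, and all of the 139 TPM in the fourth old D1 library was Tbr1. The 7 GABAergic interneuron markers summed to 31.6 to 546 TPM in old D1, against 62.1 to 143 in young D1, with Sst leading the highest library at 509 TPM, and Nos1 was called higher in old D1. The 7 markers shared by all SPNs summed to 4531 to 4784 TPM in old D1, against 5500.0 to 6949 in young D1, and Ppp1r1b was called lower. Of the tested markers of astrocytes, oligodendrocytes, their precursors, microglia and cholinergic interneurons, none was called in this comparison, and the astrocyte sums were 34.0 to 61.4 TPM in old D1 and 35.2 to 89.0 in young D1. The part of other cells in the changes of the 10 genes was not tested.

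In D2 neurons none of the 10 genes was called with age by edgeR, where 0.079% of all genes were. An unadjusted p under 0.05 was found for 3 of the 10, and for 801 of all 13926 genes. DESeq2 and limma-trend also called 0. Limma-voom with library weights called 1, Cacng3 (adjusted p = 0.0204), where it called 167 of 13926 genes. The TPM values of 5 of the 10 did not overlap between ages, where 7.07% of genes did not: Gria2 and Cacng5 were higher in each old D2 library, and Cacng2, Cacng3 and Cnih2 lower. The median log2 fold change of the 10 was -0.25, beside 0.01 over all genes.

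Cacng3 had 155, 139, 127 and 88.7 TPM in old D2, against 321, 200.1, 317 and 326 TPM in young D2, a log2 fold change of -0.88 (SE 0.29, unadjusted p = 0.0075 and edgeR adjusted p = 0.59). Gria2 had 379.6, 232, 328 and 237 TPM in old D2, against 207, 204, 183 and 208 TPM in young D2, a log2 fold change of 0.47 (SE 0.21, edgeR adjusted p = 0.802). The old D2 values of both genes spread more widely than the gap to the nearest young library. Cnih2 had 67.0, 130.4, 129 and 101 TPM in old D2, against 139, 153, 143 and 194 TPM in young D2, with a log2 fold change of -0.63 (SE 0.44).

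Gria1 had 141, 86.1, 164 and 102 TPM in old D2, against 87.9, 72.0, 78.8 and 76.8 TPM in young D2. Only the old D2 library at 86.1 TPM fell within the young range, and the log2 fold change was 0.56 (SE 0.25, edgeR adjusted p = 0.782). Cacng2 had 16.7, 22.4, 25.4 and 17.4 TPM in old D2, against 31.9, 28.5, 52.8 and 52.5 TPM in young D2 (log2 -1.10, SE 0.60). Cacng5 had 10.9, 11.2, 9.84 and 5.97 TPM in old D2, against 4.09, 0.41, 1.67 and 3.76 TPM in young D2 (log2 1.86, SE 0.90, edgeR adjusted p = 0.889). Gria3, Gria4, Cacng4 and Cacng8 overlapped between the ages, with log2 fold changes of 0.10, -0.10, -0.40 and -0.43.

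Old D2 libraries also held more D1 marker mRNA: the sums of 411 to 656 TPM in old D2 lay above the 133 to 154 TPM in young D2, and Drd1, Tac1 and Chrm4 were called higher with age. Astrocyte markers summed to 35.5 to 55.6 TPM in old D2, against 11.5 to 16.6 in young D2, and microglial markers to 7.99 to 21.7 TPM in old D2, against 0.35 to 2.37 in young D2, with none called. Their part in the values of the 10 genes was not tested.

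Whether age acted differently in D1 and D2 neurons was tested as the difference between the age changes. By edgeR 0 of the 10 genes were called, where 1.77% of genes were. Of all 13926 genes 2353 had an unadjusted p under 0.05, and of the 10 genes 2 did. Those were Cacng3, with a difference of -1.22 (SE 0.41, edgeR adjusted p = 0.127), and Gria1, with -1.02 (SE 0.35, edgeR adjusted p = 0.126). DESeq2 called 1, Gria1 (adjusted p = 0.0489), where it called 1019 of 13926 genes, and limma-voom and limma-trend called 0. Gria2's difference was 0.45 (SE 0.30, edgeR adjusted p = 0.484) and Cnih2's was -0.79 (SE 0.62, edgeR adjusted p = 0.574). Without the third old D1 library Gria1 was called (-1.24, edgeR adjusted p = 0.044), and without the fourth Cnih2 was (-1.67, edgeR adjusted p = 0.0393). A call in D1 and none in D2 is therefore not shown to be a difference between the neuron types for Gria2, Cacng3 or Cnih2.

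**Figure D3:**
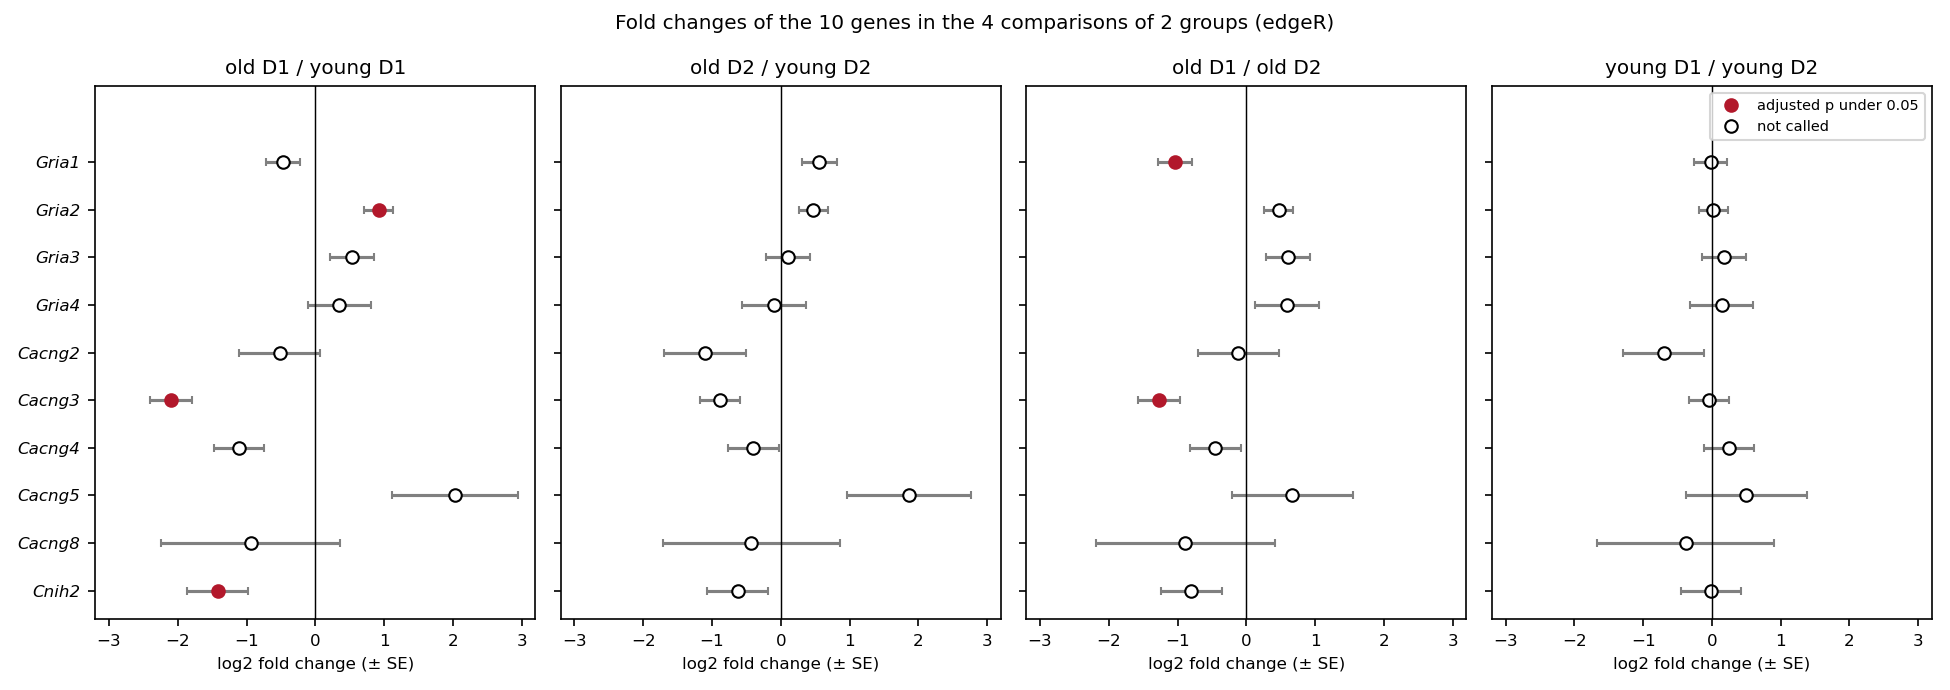
Log2 fold change (horizontal axis) with its SE (bar) of the 10 genes in 4 comparisons, with filled points called at an adjusted p under 0.05 by edgeR. In D1 with age Gria2 is called at 0.92, Cacng3 at -2.10 and Cnih2 at -1.42, no gene is called in D2 with age or between young D1 and young D2, and Gria1 and Cacng3 are called between old D1 and old D2.

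Young D1 and young D2 neurons had close levels of the 10 genes. None was called by edgeR, where 0.409% of genes were, none had an unadjusted p under 0.05, and DESeq2, limma-voom and limma-trend called 0. None of the 10 was free of overlap in TPM, where 6.35% of genes were. Gria1 averaged 71.7 ± 10.4 TPM in young D1 and 78.9 ± 6.67 in young D2, and Gria2 189 ± 27.2 in young D1 and 200.6 ± 12.1 in young D2 (SD, n = 4 each). Their log2 fold changes were -0.02 (SE 0.24) and 0.02 (SE 0.21), and Cnih2's was -0.01 (SE 0.44). The largest of the 10 were Cacng2 at -0.70 (SE 0.59) and Cacng5 at 0.50 (SE 0.88), so small differences were not detectable in the low TARPs.

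Old D1 and old D2 neurons differed in 2 of the 10 genes, where 9.6% of genes were called, and this comparison uses the same old D1 libraries as the age comparison. Gria1 was lower in old D1, at 48.8, 61.0, 82.9 and 33.7 TPM, against 141, 86.1, 164 and 102 TPM in old D2 (log2 -1.04, SE 0.25, edgeR adjusted p = 0.0121). Cacng3 was lower in old D1, at 37.0, 45.9, 40.4 and 76.3 TPM, against 155, 139, 127 and 88.7 TPM in old D2 (log2 -1.27, SE 0.30, edgeR adjusted p = 0.0114). Neither gene overlapped between the groups, where 14.8% of genes did not. Gria2 was at 0.47 (SE 0.21, edgeR adjusted p = 0.166) and Cnih2 at -0.80 (SE 0.44, edgeR adjusted p = 0.266), which became -1.69 (edgeR adjusted p = 0.00262) without the fourth old D1 library. Markers of other cells were called here too, with Tbr1 and Slc1a2 higher and Lhx8 and Cnp lower in old D1, and their part was not tested. Each was the only called marker of its list, among 4 tested for glutamatergic neurons, 7 for astrocytes, 3 for cholinergic interneurons and 6 for oligodendrocytes. Tbr1 ran from 0 to 139 TPM in old D1, and the astrocyte sums overlapped (34.0 to 61.4 TPM in old D1, 35.5 to 55.6 in old D2). Slc1a2 was also called higher in young D1 than in young D2 (1.30, edgeR adjusted p = 0.0318).

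Both calls ended with the GC and length trend removed, where Gria1 had -0.62 (edgeR adjusted p = 0.136) and Cacng3 -0.03 (edgeR adjusted p = 0.965) beside a median of all genes of 0.61. Relative to that median Gria1 was at -1.23 and Cacng3 at -0.64, against -0.97 and -1.19 relative to the median with no correction. Both calls also ended with limma-voom and with only the old groups in the fit. Gria1's call ended without the third old D2 library, at 164 TPM (edgeR adjusted p = 0.0543). The level of Gria1 in old D2 averaged 123 ± 35.6 TPM, against 56.6 ± 20.8 in old D1, 71.7 ± 10.4 in young D1 and 78.9 ± 6.67 in young D2 (SD, n = 4 each).

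The makeup of the receptor was then set out as shares, with no test. Gria2 made up 62.9 ± 3.19% of the summed Gria1 to Gria4 TPM in old D1, against 51.1 ± 6.57% in young D1 (SD, n = 4 each). Its share was 55.5 ± 2.30% in old D2, against 51.6 ± 2.32% in young D2. Gria1 made up 10.3 ± 4.63% in old D1 (4.48 to 15.8%), against 19.4 ± 2.63% in young D1 (16.2 to 21.6%), and these ranges did not overlap. In old D2 Gria1 made up 23.2 ± 2.74%, against 20.4 ± 2.42% in young D2. Gria3 held 22.8 ± 5.53% in old D1 and 24.8 ± 4.77% in young D1, and Gria4 averaged 4.13 ± 2.40% in old D1 and 4.73 ± 1.18% in young D1.

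The summed TPM of the 4 pore genes was 586 ± 131 in old D1, against 370.4 ± 31.9 in young D1, and 533 ± 146 in old D2, against 389 ± 32.6 in young D2. The summed TPM of the 5 TARPs ran the other way: 123 ± 23.9 in old D1, against 366 ± 158 in young D1, and 219 ± 55.6 in old D2, against 413 ± 66.5 in young D2 (SD, n = 4 each). In both neuron types, then, the TARP sums of old libraries (90.9 to 147 TPM in old D1, 139 to 261 in old D2) lay under those of young libraries (279 to 602 in young D1, 318 to 462 in young D2). The pore genes had 36.8 to 48.5% GC content and the TARPs 50.6 to 67.2%, and neither sums nor shares were corrected for it. Across all genes the age change had r = -0.25 with GC content in D1 and 0.01 in D2. The part of GC content in the sums was not tested. Cacng7, listed with other auxiliary proteins and outside the sum, averaged 38.5 TPM in old D1, against 24.0 in young D1. It averaged 41.8 TPM in old D2, against 23.9 in young D2. Cacng3 made up 41.0 ± 12.5% of TARP TPM in old D1, against 68.6 ± 7.58% in young D1, and 59.1 ± 6.92% in old D2, against 70.01 ± 5.89% in young D2. Cacng4 made up 31.2 ± 10.9% in old D1, against 21.1 ± 5.09% in young D1. As shares of expected counts, which are not per length, Cacng3 made up 25.5% in old D1, against 47.5% in young D1, and Cacng4 34.0% in old D1, against 32.3% in young D1. Cacng3's TPM also rests on how its fragments were divided among isoforms: the fourth old D1 library had the fewest Cacng3 counts of the 16, 947, but the highest Cacng3 TPM in old D1, 76.3, of which 94.5% was given to an isoform of 765 bases.

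**Figure D4:**
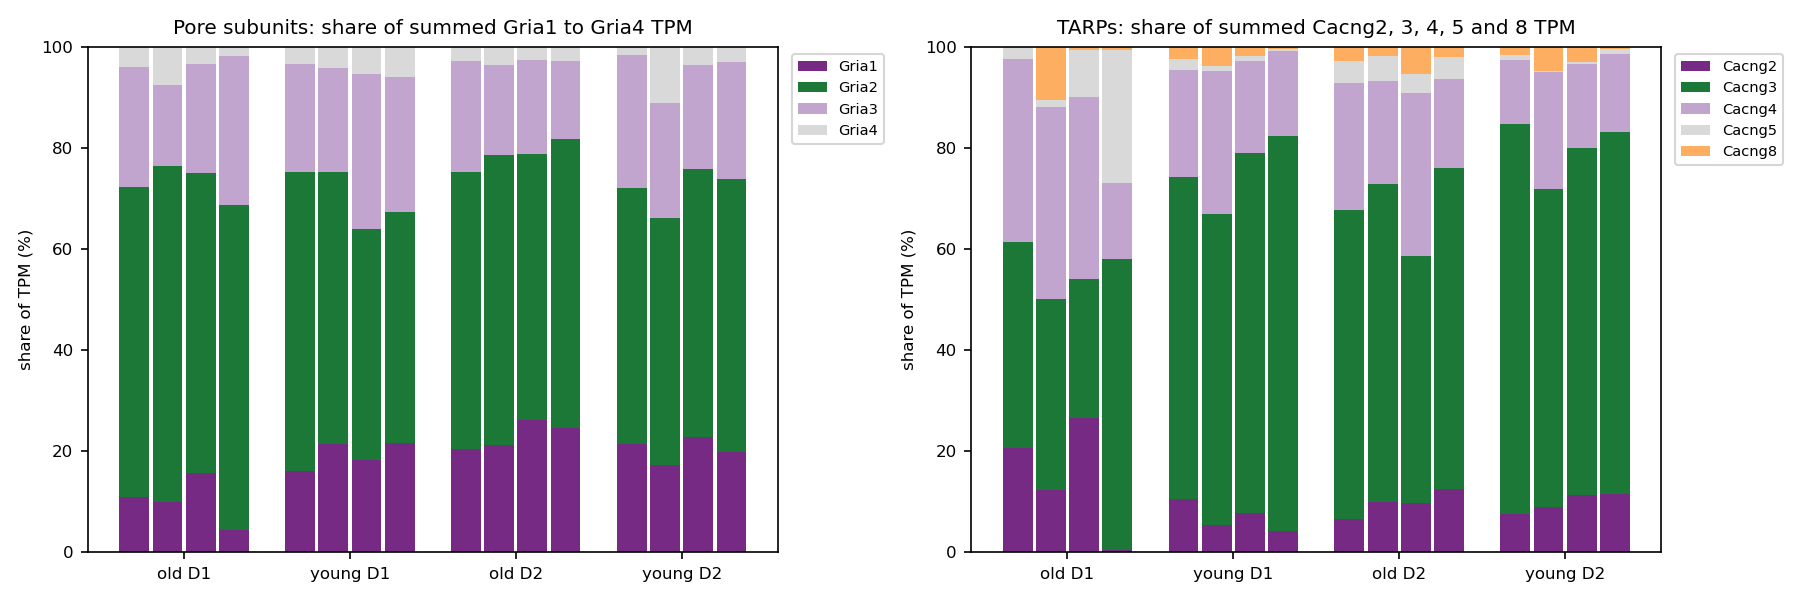
Share of TPM (vertical axes, %) of each pore subunit in the Gria1 to Gria4 sum (left) and of each TARP in the sum of 5 TARPs (right), with each bar a library. Gria1's share is 4.48 to 15.8% in old D1, under the 16.2 to 21.6% of young D1, and Cacng3's share is 27.5 to 57.6% in old D1, under the 61.6 to 78.1% of young D1.

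At the isoform level, 30 isoforms of the 10 genes were in the tables and 23 passed the filter. With age in D1, 1 of them was called, where 4.2% of isoforms tested were: the flop isoform of Gria2 was higher in old D1 (log2 1.11, SE 0.24, edgeR adjusted p = 0.0153). Isoforms were not fitted by limma-voom, with only the D1 groups or with the GC and length trend removed. In each of those settings the gene-level call of Gria2 ended. The flop isoform had 243, 378, 289.5 and 483 TPM in old D1, against 176, 165, 153 and 86.4 TPM in young D1, with no overlap. The flip isoform of Gria2 had 32.0, 33.05, 22.1 and 0 TPM in old D1, against 35.9, 43.1, 31.8 and 66.0 TPM in young D1 (log2 -1.28, SE 0.99, edgeR adjusted p = 0.504). Both isoforms are 6841 bases long in the tables and, in GENCODE M21, differ by the exons printed above. In the other 4 contrasts edgeR called 0 of the 23, where 0.0138% of isoforms were called in D2 with age, 0.996% in the difference, 0.104% between young D1 and D2 and 4.23% between old D1 and D2. At an unadjusted p under 0.05 there were 2 in D2 with age and 2 in the difference. There was 1 between young D1 and D2 and 5 between old D1 and D2, with no count over all isoforms at hand. Over these 4 contrasts, in that order, DESeq2 called 1, 2, 1 and 2 of the 23. Of all 28914 isoforms it called 646, 3709, 705 and 5698.

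The flip share of Gria2, flip TPM over flip plus flop TPM, was 11.7, 8.04, 7.09 and 0% in old D1, against 17.0, 20.7, 17.2 and 43.3% in young D1. All old D1 libraries were under all young ones, with means of 6.70 ± 4.88% in old D1 and 24.6 ± 12.6% in young D1 (SD, n = 4 each) and an exact two-sided permutation p of 0.0286, the smallest that 4 against 4 can give. Adjusted over the 16 gene and group comparisons made, that p is 0.229, so the difference did not pass. The share was 22.5 ± 0.50% in old D2, against 25.5 ± 5.88% in young D2 (exact permutation p = 0.4, n = 4 each). Old D1 was also under old D2 in every library (exact permutation p = 0.0286, adjusted p = 0.229), and young D1 and young D2 differed by -0.98 points (exact permutation p = 0.914).

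Gria1 was split more evenly, with a flip share of 47.2, 13.9, 28.2 and 100% in old D1, against 45.2, 60.0, 82.9 and 65.8% in young D1 (exact permutation p = 0.514). In old D2 it was 74.3, 52.3, 67.1 and 71.0%, against 52.5, 42.8, 53.2 and 44.9% in young D2 (exact permutation p = 0.0857, adjusted p = 0.457). The fourth old D1 library is at the extreme of both genes, with all Gria1 read as flip and all Gria2 as flop. Gria3 was read as flip at 94.1 to 100% in all libraries, but its flop isoforms are 3081 and 2667 bases long in the tables and the flip one 5192, so the share also rests on sequence outside the exon. For Gria4, 7 of 16 libraries had equal flip and flop values to the last decimal and 7 had only 1 form, so its share was not resolved. Only fragments that reach into a 115-base exon tell Gria2 flip from flop, and the share carries the error of that division, which the tables do not give.

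**Figure D5:**
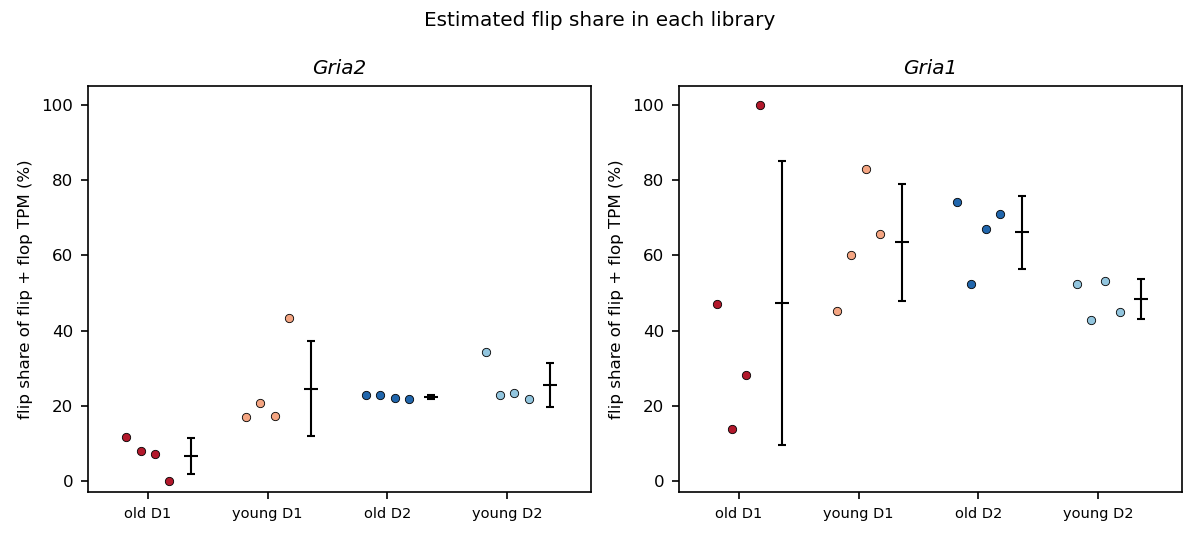
Flip share (vertical axis, % of flip plus flop TPM) of Gria2 and Gria1 in each library, with the mean ± SD of 4. Gria2 lies at 0 to 11.7% in old D1, under the 17.0 to 43.3% of young D1 and the 21.9 to 22.9% of old D2, while Gria1 in old D1 runs from 13.9 to 100%.

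Of 33 genes listed for work on AMPA receptors, 31 were tested. With age in D1, 4 were called higher and 1 lower, beside the 10.8% of all genes called. Among other auxiliary proteins 1 of 8 was called, Shisa9 (also CKAMP44, which slows recovery from desensitization), at 66.5, 141, 123 and 242 TPM in old D1, against 54.5, 41.3, 65.6 and 49.7 TPM in young D1 (log2 1.61, SE 0.35, edgeR adjusted p = 0.00664). Shisa9 missed the threshold with only the D1 groups in the fit (edgeR adjusted p = 0.0642). Among genes of anchoring, traffic and clustering 4 of 14 were called. Akap5, which anchors kinase A and calcineurin at the receptor, had 620.5, 644, 576 and 510.1 TPM in old D1, against 359, 308, 309 and 287 TPM in young D1 (log2 0.90, SE 0.14, edgeR adjusted p = 4.8e-04). Dlg4 (PSD-95), the scaffold that TARPs bind, had 361, 203, 617 and 488 TPM in old D1, against 1183, 1166, 738 and 1160.0 TPM in young D1 (log2 -1.64, SE 0.19, edgeR adjusted p = 8.84e-05).

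Akap5 and Dlg4 did not overlap between the ages in D1, and both were still far apart in the difference of age changes between D1 and D2. By that test 2 of the 31 were called, where 1.77% of all genes were, and limma-trend called 0. The difference was 0.86 (SE 0.19, edgeR adjusted p = 0.0283) for Akap5 and -1.36 (SE 0.27, edgeR adjusted p = 0.0178) for Dlg4. With the GC and length trend removed, Dlg4's change in D1 was -0.34 (edgeR adjusted p = 0.451) and its difference -0.03, while Akap5's change in D1 was 0.74 (edgeR adjusted p = 0.0257) and its difference 0.81 (edgeR adjusted p = 0.124), with medians of all genes of 0.49 and 0.54. Akap5's difference also missed the threshold without either of 2 young D1, any of 3 young D2 or either of 2 old D2 libraries (edgeR adjusted p 0.062 to 0.0902).

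Nptx1, a secreted pentraxin that clusters AMPA receptors, had 11.4, 23.3, 30.9 and 64.3 TPM in old D1, against 3.89, 6.20, 3.87 and 9.64 TPM in young D1 (log2 2.38, SE 0.56, edgeR adjusted p = 0.0101), but missed the threshold with only the D1 groups in the fit (edgeR adjusted p = 0.0748). Nsf, an ATPase of membrane fusion that binds Gria2, had 612, 397, 389.5 and 1200.0 TPM in old D1, against 387, 344, 353 and 117 TPM in young D1 (log2 0.80, SE 0.21, edgeR adjusted p = 0.0179). Nsf missed the threshold without the young D1 library at 117 TPM (edgeR adjusted p = 0.0684) or the old D1 library at 612 TPM (edgeR adjusted p = 0.0546). It also missed it by limma-voom (adjusted p = 0.0959), by limma-trend (adjusted p = 0.0642) and with only the D1 groups in the fit (edgeR adjusted p = 0.114). None of 6 genes of receptor biogenesis was called in D1, and none of 3 RNA editing enzymes. Adarb1 averaged 28.7 ± 13.4 TPM in old D1 and 44.7 ± 15.8 in young D1 (SD, n = 4 each; log2 -0.15, SE 0.27).

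With age in D2 edgeR called 0 of the 31, where 0.079% of all genes were called, and DESeq2, limma-voom and limma-trend called 0. At an unadjusted p under 0.05 there was 1 of the 31, beside 801 of all 13926 genes. Akap5 averaged 289 ± 37.0 TPM in old D2 and 263 ± 36.7 in young D2, and Dlg4 1163 ± 59.4 in old D2 and 1274 ± 319 in young D2. Between young D1 and D2 edgeR called 0 of the 31, where 0.409% of all genes were called. There 3 of the 31 had an unadjusted p under 0.05, beside 837 of all 13926 genes. DESeq2 and limma-trend called 0, and limma-voom called 1, where it called 203 of 13926 genes. Between old D1 and D2 edgeR called 4 of the 31, where 9.6% of all genes were called. Akap5 (log2 1.15, SE 0.14) and Nptx1 (1.99, SE 0.55) were called higher in old D1, and Dlg4 (-1.47, SE 0.19) and Grip2, a scaffold at or near 0 TPM in old D1 and at 1.21 in old D2, lower. Grip2's call ended by limma-voom (adjusted p = 0.129), with no filter on low counts (edgeR adjusted p = 0.051), and without the first, the second or the fourth old D1, any old D2 or the third young D2 library (edgeR adjusted p 0.0527 to 0.0775). Nptx1's call ended without the fourth old D1 library (1.29, edgeR adjusted p = 0.125) and without the first, the second or the third old D2 library (edgeR adjusted p 0.0787 to 0.09). It also ended by limma-voom (adjusted p = 0.0513), by limma-trend (adjusted p = 0.0708) and with only the old groups in the fit (edgeR adjusted p = 0.101). Dlg4's call ended with the GC and length trend removed (-0.21, edgeR adjusted p = 0.654), beside a median of all genes of 0.61. Relative to that median Dlg4 was at -0.82, against -1.40 relative to the median with no correction.

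The genes whose log2(TPM + 1) over the 16 libraries was most like that of the 3 main pore subunits were listed from 9726 genes with a mean of at least 5 TPM, as a description over libraries that share groups and depth. Gria2 was most like Ctsl (r = 0.92), Syt1 (r = 0.91) and Gspt1 (r = 0.91), and Syt1 averaged 421 TPM in old D1, against 207 in young D1, and 288 in old D2, against 207 in young D2. Gria1 was most like Ctsz (r = 0.91), Dbr1 (r = 0.87) and 0610030E20Rik (r = 0.86), and Ctsz averaged 8.62 TPM in old D1, against 12.6 in young D1, and 39.4 in old D2, against 21.5 in young D2. Gria3 was most like Glg1, Selenof and Mipep (r = 0.82, 0.82 and 0.81). Among the 10 genes themselves, r was highest for Cacng3 and Cnih2 (0.79) and lowest for Gria2 and Cacng3 (-0.72), while Gria1 and Gria2 had r = -0.10.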

How the data were processed

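Per the labels' protocols, libraries were made with a NuGEN Ovation V2 kit. The submitters' processing notes name STAR 2.5.1b, RSEM 1.2.20 and mm10. Per the file headers, the authors deposited RSEM's expected counts and TPM for 39017 genes and 94647 isoforms. No source used here gives the annotation release or the strand setting. RSEM divides fragments among isoforms with a model.

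Expected counts were rounded, since 20% of nonzero gene values were not whole. Genes kept by filterByExpr were fitted in edgeR 4.0.16 (R 4.3.3; TMM, robust quasi-likelihood, all 16 libraries). Alternatives used DESeq2 1.42.0, limma 3.58.1, other scalings and filters, splines of GC content and length (4 degrees of freedom, 13548 genes) and each library left out. Exons came from GENCODE M21, and a form is called flip where the exon encodes serine and flop where it encodes asparagine at the first such difference.

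The 10 members and the gene lists were chosen with earlier results of these data known. Genes named are all members, up to 3 called genes per list, direction and contrast by smallest adjusted p, and the 3 genes of highest r. The design text calls the replicates biological, and their numbers follow record order.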

Additional observations from a re-analysis of the deposited data

Results flagged for a closer look

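A library was taken to stand apart where its gap to the nearest of its group of 4, over the group's range, passed Dixon's 95% critical value for 4 samples. Of 92 groups of values checked, 15 held such a library, and chance flags about 1 in 20. Many of the values are shares of each other, so the flags are not independent.

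Among levels, Gria3 was at 222 TPM in the fourth old D1 library, against 99.7 to 114 in the other 3. Gria4 was at 46.0 TPM in the second old D1 library (others 13.2 to 17.9) and at 46.6 TPM in the second young D2 library (others 6.55 to 12.4). Cacng3 was at 470.5 TPM in the fourth young D1 library (others 182 to 199) and at 200.1 TPM in the second young D2 library (others 317 to 326). Cacng8 was at 12.7 TPM in the second old D1 library (others 0 to 0.90), and Gria2 at 183 TPM in the third young D2 library (others 204 to 208).

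Among flip shares, Gria2 was at 43.3% in the fourth young D1 library (others 17.0 to 20.7%) and at 34.3% in the first young D2 library (others 21.7 to 23.3%). Gria3 was at 96.2% in the second old D1 library, where the other 3 were at 100%, and Gria4 at 0% in the first old D1 library, where the other 3 had equal forms.

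Among makeup shares, Gria4 was at 3.52% of pore TPM in the second old D2 library (others 2.63 to 2.70%). Of TARP TPM, Cacng3 was at 48.9% in the third old D2 library (others 61.2 to 63.6%), Cacng4 at 15.0% in the fourth old D1 library (others 35.97 to 37.9%) and Cacng8 at 10.5% in the second old D1 library (others 0 to 0.63%).

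The age change differed between D1 and D2 neurons, by the test of the difference itself, for Dlg4 (-1.36, edgeR adjusted p = 0.0178) and Akap5 (0.86, edgeR adjusted p = 0.0283), both from the lists of receptor partners and not among the 10 genes. Limma-trend called neither, and Akap5's difference missed the threshold in 11 of 23 alternatives. After correction for GC content and length the difference was -0.03 for Dlg4 and 0.81 for Akap5, beside a median of all genes of 0.54. Relative to that median they were at -0.57 and 0.27, against -1.25 and 0.96 relative to the median with no correction.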

How the results depend on the processing

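The number of the 10 genes called with age in D1, 3, was 1 when fitted on the D1 groups alone, 0 after correction for whole-isoform GC content and length, and 2 to 3 over leaving out each library. With coding GC content and length, Cacng3 and Cacng5 were called (edgeR adjusted p = 0.00923 and 0.0405). In D2 it was 1 by limma-voom, where 167 of 13926 genes were called. The difference of age changes gave 1 by DESeq2, where 1019 of 13926 genes were called, and 0 to 1 over libraries left out. The 2 called between old D1 and D2 became 0 by limma-voom, on the old groups alone and after either GC correction, and 1 to 3 over libraries left out. Young D1 against D2 gave 0 throughout. By DESeq2, member isoforms called were 6 with age in D1, 1 in D2, 2 in the difference, 1 between young groups and 2 between old groups. In that order DESeq2 called 5637, 646, 3709, 705 and 5698 of all 28914 isoforms. By edgeR over libraries left out, member isoforms called were 1 to 4, 0, 0 to 1, 0 and 0 to 2. Cnih2 in D1 reversed to 0.96 after correction for GC content and length and to 0.04 with coding GC, but these move the median of all genes to 0.49 and 0.48, relative to which Cnih2 is at 0.47 and -0.43. Gria2's flip difference of -17.9 points in D1 ran from -20.4 to -11.6 over libraries left out, and its share of pore counts in old D1 was 69.2% from expected counts, against 62.9% of TPM and 61.6 to 64.1% over libraries left out. Expected counts moved 18 of the other 35 makeup shares by more than the spread, among them Cacng3 to 25.5% of TARPs in old D1 and 47.5% in young D1, and Cacng2 to 17.3% in young D1 and 24.8% in young D2.

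Over all genes, calls with age in D1 were 750 higher and 758 lower, but 1430.0 higher and 250.0 lower after correction for whole-isoform GC content and length, 2600.0 in all by DESeq2, 547 by limma-voom and 305 on the D1 groups alone. Of 1190 member values under alternatives, 1147 kept direction and side or stayed uncalled, 66 of these with a changed sign, and the cause was not tested. Depth limits Cacng5 and Cacng8 most. No paired analysis was possible because the labels give no replicate numbers shared between groups.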
